A study of Homo sapiens with 4 samples.

Results

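The microRNAs (miRNAs) of HepG2 cells that carried Twist1 alone were compared with those of HepG2 cells that carried Twist1 and Bcl-2 together. HepG2 is an established human hepatocellular carcinoma line. HepG2-Twist1 had been transfected with pcDNA-Twist1, and HepG2-Twist1/Bcl-2 with a pcDNA-Twist1 and a pcDNA-Bcl-2 plasmid, so Twist1 was shared by both lines and Bcl-2 set them apart. The latter is called the double line below. HepG2-Bcl-2, with pcDNA-Bcl-2 alone, and HepG2-vector, a control whose transfection construct was listed as none, were measured alongside. The paper describes HepG2-Twist1 as a line with stable Twist1 expression and does not describe the lines with Bcl-2. Whether each line was a clone or a pool is not given in the sources used here.

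Twist1 is a transcription factor that drives epithelial-mesenchymal transition (EMT), and Bcl-2 is a mitochondrial protein that restrains apoptosis. A miRNA is a short RNA that guides Argonaute to messenger RNAs, mostly through the bases at positions 2 to 8, its seed, and lowers their translation or stability. miRNAs that share a seed form a family with overlapping targets, and neighbouring miRNA genes are often transcribed together as a cluster. Several of them, such as miR-15a and miR-16, are known to repress BCL2 itself, and others, such as miR-221, act on its partners.

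Each line was measured once, on 2 two-colour arrays with probes for 1212 human miRNAs at 3 repeat spots. On array 1, Cy3 marked HepG2-vector and Cy5 marked HepG2-Twist1. On array 2, Cy3 marked the double line and Cy5 marked HepG2-Bcl-2. The array and the dye therefore changed together with the construct between HepG2-Twist1 and HepG2-Twist1/Bcl-2, and their parts in a difference cannot be told apart. HepG2-vector had the dye of the double line and HepG2-Bcl-2 its array, so the values of both are given beside the comparison for part of the miRNAs. A miRNA given with only 2 values has HepG2-Twist1 first and the double line second. With 1 sample per line no test between lines was possible, and an error printed here is the SD of the repeat spots, which covers 1 hybridization per line and no difference between cultures. The values are normalized intensities as deposited. A miRNA was described where at least 1 of the 2 lines reached 32, values under 32 were set to 32, and a fold against such a value is a bound. That left 290 of the 1212 miRNAs, of which 182 reached 32 in both lines, 71 only in HepG2-Twist1 and 37 only in HepG2-Twist1/Bcl-2.

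The 4 channels were alike in their normalized totals, which lay between 490234 and 505607, but not in their background. The median of the 40 empty spots was 39.1 in the channel of HepG2-Twist1 and 158.9 in that of HepG2-Twist1/Bcl-2, where the median miRNA spot read 147.6 and thus below the empty ones. The liver markers miR-192 and miR-194 were above 100 in both lines, whereas miR-122, the miRNA that defines hepatocytes, stayed under 32 in all 4 (4.18 in HepG2-Twist1 and 9.17 in the double line). The liver marker miR-148a was dim, at 42.4 in HepG2-Twist1 and under 32 in the double line (19.06). None of the listed muscle and mesenchymal markers reached 32 in either line. Of the listed blood-cell and neuronal miRNAs, miR-486-5p read 65.5 and 65.8, miR-128 read 1579.5 and 867, and miR-9 read 32.8 and 48.8. Twist1 and BCL2 are messenger RNAs and have no probe among the miRNA probes. At the edge of the selection, miR-92a-1* was just inside at 32.01, and miR-328 just outside at 31.62.

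The sequences below belong to part of the miRNAs described, as listed for the array and annotated by RefSeq on GRCh38.p14. The seed, positions 2 to 8 from the 5′ end, is in capitals. The first 6 share the seed AAAGUGC and the next pair the related seed AAGGUGC; these were the miRNAs of the miR-17/92 cluster on chromosome 13 and of its relatives on chromosomes X and 7.
miR-17: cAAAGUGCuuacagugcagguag
miR-20a: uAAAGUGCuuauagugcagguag
miR-20b: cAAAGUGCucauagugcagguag
miR-106a: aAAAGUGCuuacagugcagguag
miR-106b: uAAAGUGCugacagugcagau
miR-93: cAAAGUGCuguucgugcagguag
miR-18a: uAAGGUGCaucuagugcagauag
miR-18b: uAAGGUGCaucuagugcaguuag
miR-106a differed from miR-17 at 1 of 23 positions and miR-20a at 2 of 23, and miR-18b differed from miR-18a at 1 of 23. How far the probes tell such relatives apart was not tested.

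The next set was shown because the results set relatives with 1 seed side by side. let-7a, let-7e and miR-98 share the let-7 seed GAGGUAG, miR-26a and miR-26b the seed UCAAGUA, and miR-29a and miR-29c the seed AGCACCA.
let-7a: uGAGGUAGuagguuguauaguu
let-7e: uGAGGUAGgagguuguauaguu
miR-98: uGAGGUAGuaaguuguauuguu
miR-26a: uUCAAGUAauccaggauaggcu
miR-26b: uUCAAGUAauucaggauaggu
miR-29a: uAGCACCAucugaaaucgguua
miR-29c: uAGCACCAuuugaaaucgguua
let-7e differed from let-7a at 1 of 22 positions and miR-98 at 2 of 22. miR-26b differed from miR-26a at 2 of the 21 positions they share.

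The last set held other miRNAs that were at least 2-fold higher in the double line. miR-1246 and both miR-1260 forms are listed as miRNAs although their sequences are known to match other small RNAs.
miR-1246: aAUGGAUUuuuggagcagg
miR-1260b: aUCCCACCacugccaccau
miR-1260: aUCCCACCucugccacca
miR-4281: gGGUCCCGgggagggggg
miR-365: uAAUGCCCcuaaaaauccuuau
miR-574-5p: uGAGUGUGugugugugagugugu

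In HepG2-Twist1/Bcl-2, 36 of the 290 miRNAs were at least 2-fold higher than in HepG2-Twist1 (12.4%) and 45 at least 2-fold lower (15.5%), or 81 in all (27.9%). Those higher included miR-1246, miR-4286, miR-4298, miR-3613-3p, miR-574-5p, miR-4281, miR-98, miR-26b and let-7e. Those lower included most of the miR-17/92 family, miR-3185, miR-29a, miR-192 and a set of GC-rich miRNAs. The other 209 lay within 2-fold. Over all 290 the log2 ratio of HepG2-Twist1/Bcl-2 over HepG2-Twist1 had a median of -0.13 and ran from -3.47 to 4.90. It was above 0 for 123 miRNAs and below 0 for 167. Of the calls, 5 on the higher and 17 on the lower side were bounds against a line under 32. Among 123 miRNAs that reached 100 in both lines, 15 were higher and 19 lower, and in 31 of these 34 the ratio was more than 2 SDs of the repeat spots. Dim miRNAs carried more error: of all 81 calls 55 passed 2 SDs, and 9 had no spot spread because a line's spots read at or below its empty spots.

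The scale between the lines was set by the normalization. When the scanner values were left without any, the median log2 ratio of those 123 miRNAs went from -0.08 to 1.28, and the calls were 265 higher and 10 lower, or 96.4% higher in place of 44.4%. Directions are therefore relative to the other miRNAs. Against that shift of 1.28, the medians without normalization were -0.03 for the miR-17/92 list, 0.15 for the miR-23/27/24 clusters, 0.54 for miR-30, 1.00 for miR-15/16 and 1.14 for let-7, all below it, and 1.93 for miR-320, 2.72 for miR-181 and 3.19 for fragments of other RNAs, all above it. The let-7 family was the one of these that had been above the other miRNAs in the deposited values.

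**Figure D1:**
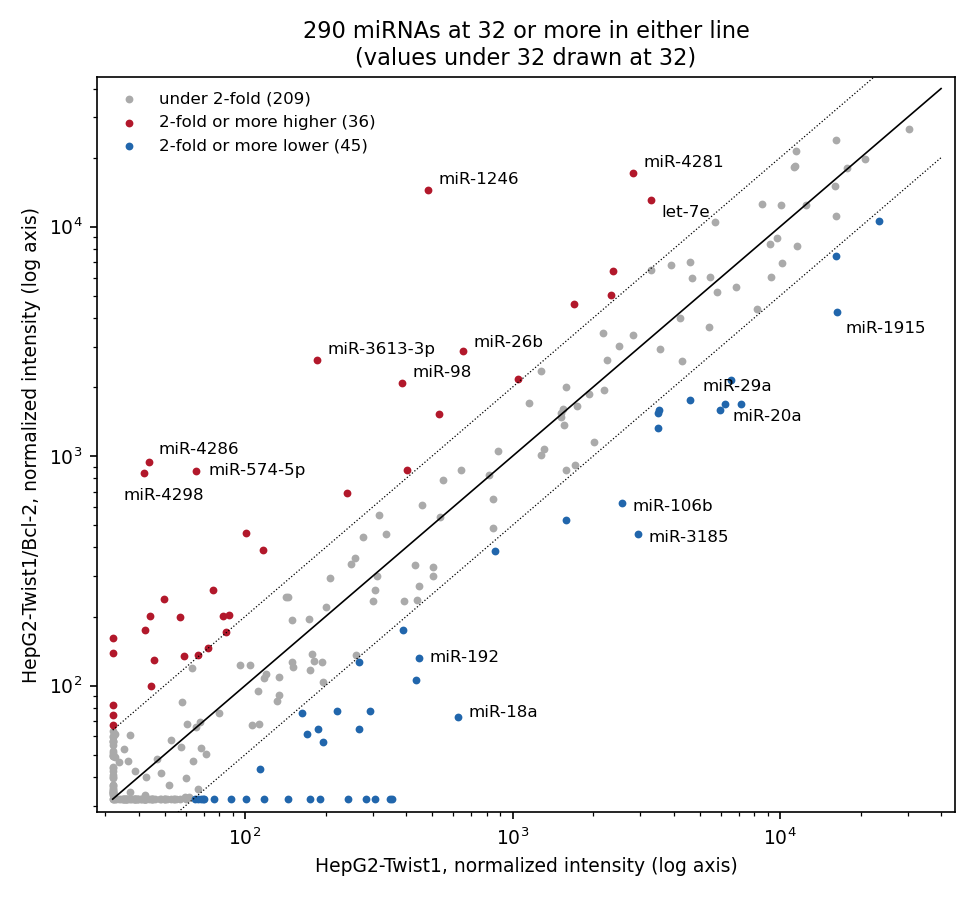
Normalized intensity in HepG2-Twist1 (horizontal) against HepG2-Twist1/Bcl-2 (vertical), both on log axes, for the 290 miRNAs at 32 or more in either line, with 1 sample per line and dotted lines at 2-fold. The 36 red points lie above the upper dotted line and the 45 blue points below the lower one, and miR-1246, at 483 and 14413, stands farthest from the diagonal.

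miR-1246, whose sequence is known to match U2 small nuclear RNA, read 483 in HepG2-Twist1 and 14413 in the double line. It also read 1159.8 in HepG2-vector and 10769 in HepG2-Bcl-2. Both lines of array 2, which are the lines with Bcl-2, were thus high and both lines of array 1 low. The log2 ratio was 4.90 ± 0.32, a 29.8-fold difference and the largest of the 290. miR-3613-3p, from chromosome 13, had the same order, with 186 and 2624 in the lines compared, 332 in HepG2-vector and 2378 in HepG2-Bcl-2. Its spots in HepG2-Twist1/Bcl-2 were uneven, at 3536, 4384 and 938, and its log2 ratio was 3.82 ± 1.08.

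miR-4281 read 2826 in HepG2-Twist1, 17184 in the double line, 4335 in HepG2-vector and 3571 in HepG2-Bcl-2. Only HepG2-Twist1/Bcl-2 was high, and its log2 ratio over HepG2-Twist1 was 2.60 ± 0.16. Another group was dim in HepG2-Twist1 and bright in the line with both transgenes; its members fell outside the rule for named miRNAs and were chosen after their values were seen. miR-4286 read 43.6 and 942, with 93.7 in HepG2-vector and 40.7 in HepG2-Bcl-2. miR-4298 read 42.0 and 841, against 48.9 and 142. miR-574-5p read 65.3 and 860.0, against 114 and 224. In all 3 the double line stood above each of the others, with log2 ratios over HepG2-Twist1 of 4.43 ± 0.21, 4.33 ± 0.47 and 3.72 ± 0.66. The other arm of the miR-574 hairpin, miR-574-3p, was higher as well, at 45.6 and 129, so both arms of that precursor pointed one way.

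Of 9 listed miRNAs whose sequences match transfer, small nuclear or ribosomal RNA, 7 were measured. Of these, 5 were at least 2-fold higher and 0 lower, beside 12.4% and 15.5% of all 290. Their median log2 ratio was 1.74, and it was 1.005 with the minimum at 100, since several members were dim. miR-1260b, which resembles a transfer RNA, read 2380.3 in HepG2-Twist1 and 6413 in the double line, a log2 ratio of 1.43 ± 0.16. It read 4939 in HepG2-vector and 1645 in HepG2-Bcl-2, so both lines marked with Cy3 were above both lines marked with Cy5. Its near copy miR-1260 was under 32 in HepG2-Twist1 (28.1) and read 139 in the double line, at least 4.35-fold higher. miR-1274a, at 43.9 and 201, and miR-1274b, at 117 and 392, resemble lysine transfer RNAs and were higher too. The brightest of the list in HepG2-Twist1 did not follow. miR-1280 read 8588 and 12553, and miR-720 read 10130.4 and 6935, both within 2-fold. In HepG2-vector and HepG2-Bcl-2, miR-1280 read 10858 and 5175, again higher in both Cy3 lines. miR-720 read 10113 and 6368 there and was lower in both lines of array 2, the lines with Bcl-2. miR-1246 was the fifth of the members that were higher.

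The let-7 family restrains growth and keeps cells differentiated by repressing RAS, HMGA2 and LIN28. All 9 of its members were measured, 2 were at least 2-fold higher, 0 lower and 8 above 0, with a median log2 ratio of 0.69. Of all 290 miRNAs, 12.4% were at least 2-fold higher, 15.5% were lower and 123 lay above 0. That direction depended on the processing, since the median was -0.17 when the median empty spot was subtracted from the scanner values. miR-98 read 386 in HepG2-Twist1, 2079 in the double line, 365 in HepG2-vector and 408 in HepG2-Bcl-2. let-7e read 3286, 13029, 3636 and 5426 in the same order. In both the double line alone was high, and the 3 other lines lay close together for miR-98 and within 2-fold of each other for let-7e. Their log2 ratios were 2.43 ± 0.81 and 1.99 ± 0.32. Over the alternatives the ratio of miR-98 ran from 2.05 to 4.59 and that of let-7e from 1.51 to 2.80. The spots of miR-98 in the double line were spread from 2873 to 5796. The more abundant relatives differed less: let-7a read 16169 and 23879, let-7f 11455 and 21380.0, and let-7i 16041 and 15119. let-7e lies at chr19:51692793-51692814 in a cluster with miR-99b and miR-125a, whose guide strands were within 2-fold, at log2 ratios of 0.02 and 0.57. miR-98 lies at chrX:53556299-53556320 within the HUWE1 gene, beside a copy of let-7f.

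miR-26b, the miRNA that the study was about, is made from chr2:218402657-218402677. The paper reported SMAD1 as its target, and lower miR-26b-5p in HepG2-Twist1 than in HepG2-vector by microarray and qRT-PCR. Regulators such as EZH2 are also known targets. In the deposited values miR-26b read 651 in HepG2-Twist1 and 2873 in the double line, with 918 in HepG2-vector and 1334 in HepG2-Bcl-2. HepG2-Twist1 was the lowest of the 4 lines and HepG2-Twist1/Bcl-2 the highest. Its 3 spots lay between 356 and 389 on the scanner in HepG2-Twist1 and between 4259 and 4702 in HepG2-Twist1/Bcl-2. The log2 ratio of 2.14 ± 0.11, or 4.41-fold, had the smallest spot SD of the 36 miRNAs that were higher. miR-26a, with the same seed, read 5482 and 6029.9, a log2 ratio of 0.14 ± 0.11. It was -0.35 with the median empty spot subtracted, whereas miR-26b ran from 2.13 to 3.68 over the alternatives.

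**Figure D2:**
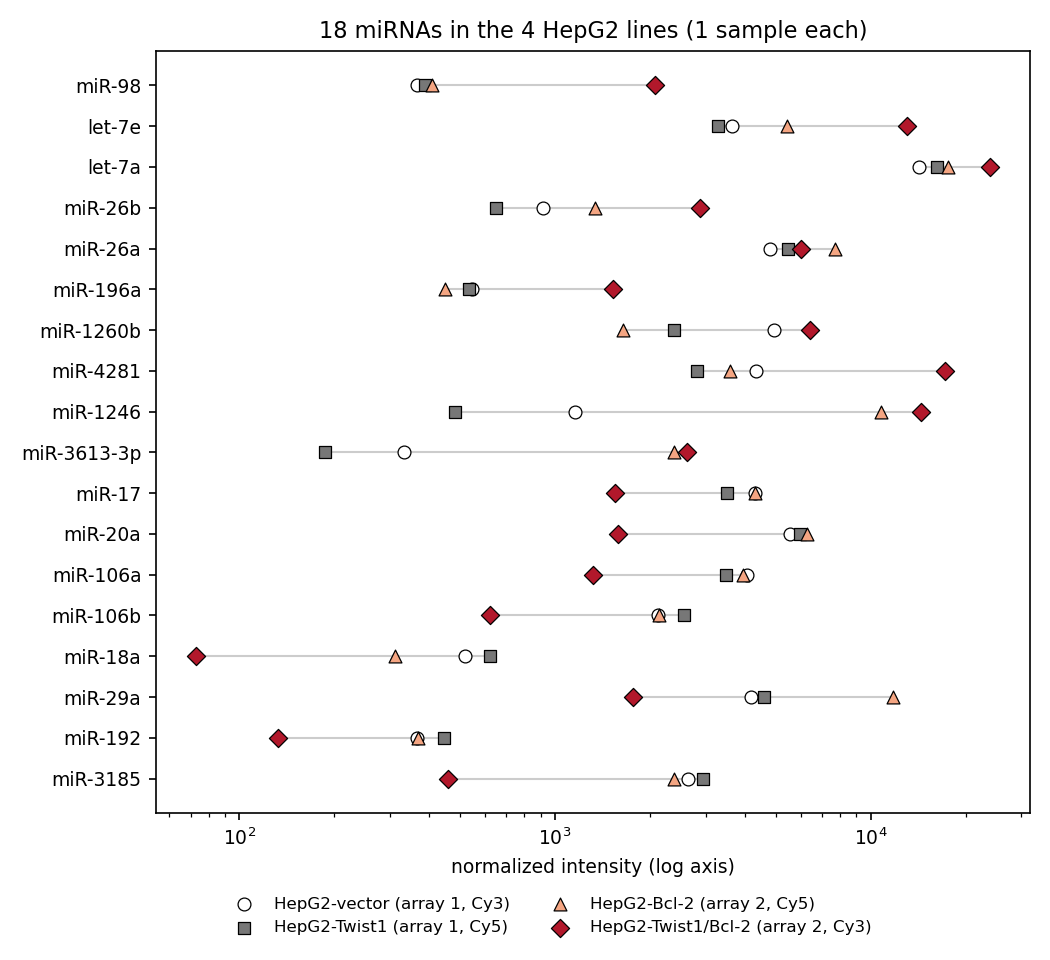
Normalized intensity (log axis) of 18 miRNAs in the 4 lines, 1 sample each, with a symbol per line. HepG2-Twist1/Bcl-2 (diamonds) is the highest line for miR-98, let-7e, miR-26b and miR-4281 and the lowest for miR-17, miR-20a, miR-106b and miR-18a. miR-1246 and miR-3613-3p are high in both lines of array 2, the lines with Bcl-2.

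The miR-17/92 cluster and its paralogs are induced by MYC and promote growth. Of 13 listed members 11 were measured, and 8 of these were at least 2-fold lower in the double line and 0 higher, with a median log2 ratio of -1.18. Of all 290 miRNAs, 15.5% were lower and 12.4% higher. miR-17 read 3508 in HepG2-Twist1, 1544 in the double line, 4304 in HepG2-vector and 4288 in HepG2-Bcl-2. miR-20a read 5972, 1584, 5538 and 6296 in that order. miR-106b read 2558, 624, 2118 and 2129.9. The double line alone was low for each of these miRNAs, and the 3 other lines were within 2-fold of each other. The log2 ratios over HepG2-Twist1 were -1.18 ± 0.11, -1.91 ± 0.31 and -2.03 ± 0.21.

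By seed, 5 of the 6 measured miRNAs with AAAGUGC were at least 2-fold lower, beside 15.5% of all 290. The median log2 ratio of the 6 was -1.29. The exception was miR-93, at 2195 and 1948. In HepG2-Bcl-2 over HepG2-vector the median of the same 6 was 0.00. The seed AAGGUGC was lower still. miR-18a read 623 in HepG2-Twist1 and 72.7 in the double line, a log2 ratio of -3.10 ± 0.22, and 517 and 311 in the lines without Twist1. miR-18b was under 32 in the double line (25.5) and read 175 in HepG2-Twist1, at least 5.46-fold lower. miR-19b, of the same cluster, was at 163 and 75.9.

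The members with the seed AUUGCAC differed from most of their neighbours. The cluster at chr13:91350605-91351391 (plus strand) had 6 measured products, of which miR-17, miR-18a, miR-20a and miR-19b were lower and miR-92a was not, at 9157 and 8399.5. Its relative on chromosome X, at chrX:134169378-134170278 (minus strand) in this build, gave miR-106a at 3486 and 1322 and miR-20b at 859.6 and 385, both at least 2-fold lower. In the cluster on chromosome 7, within the MCM7 gene, miR-106b was lower while miR-25 read 4692 and 5958, slightly above 0. miR-93 of that cluster has the seed of miR-106b but read 2195 and 1948, so the difference there did not run by seed alone. miR-92a and miR-19b have gene copies on both chromosomes 13 and X, whose products the probes cannot tell apart. The other strand of the miR-106b hairpin, miR-106b*, was dim and not lower, at 32.6 and 61.6.

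miR-29a and miR-29c repress collagens, DNA methyltransferases and the anti-apoptotic gene MCL1. miR-29a read 4595 in HepG2-Twist1, 1761 in the double line, 4178 in HepG2-vector and 11728 in HepG2-Bcl-2. The double line was the lowest and HepG2-Bcl-2 the highest. The log2 ratio was -1.38 ± 0.13 for HepG2-Twist1/Bcl-2 over HepG2-Twist1 and 1.49 for HepG2-Bcl-2 over HepG2-vector. In miR-29c the same lines were lowest and highest, with 118, 22.5, 135 and 371, and it was at least 3.69-fold lower in the double line than in HepG2-Twist1.

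Among 16 listed miRNAs known to repress BCL2, 10 were measured. Of these, 1 was at least 2-fold higher and 2 were lower, near the 12.4% and 15.5% of all 290. Their median log2 ratio was -0.32 beside -0.13 over all 290. miR-365 read 100.5 and 462, a log2 ratio of 2.20 ± 0.61, and was also higher in HepG2-Bcl-2 (362) than in HepG2-vector (147). Both lines of array 2, which are the lines with Bcl-2, were thus higher for miR-365. Both lower members were miR-29a and miR-29c. miR-16, which targets BCL2 directly, read 5427 and 3669, and miR-15a was dim at 79.7 and 76.1. The 6 measured of 7 members of the miR-15/16 family all lay below 0, none past 2-fold, with a median of -0.67. Of all 290 miRNAs, 167 lay below 0 and 123 above. miR-34a, a target of p53 that represses BCL2, read 261 and 136, with 249 in HepG2-vector and 140 in HepG2-Bcl-2. Both lines of array 2, which are the lines with Bcl-2, were thus lower for miR-34a. On the other side stood the 4 measured members of the miR-181 family, all above 0 with a median of 0.91. Of these, 2 were past 2-fold, beside 12.4% of all 290 on that side. miR-181d, at 87.2 and 203, and miR-181c, at 72.9 and 146, share a locus on chromosome 19, and both were dimmer than miR-181a, which read 639 and 871.

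**Figure D3:**
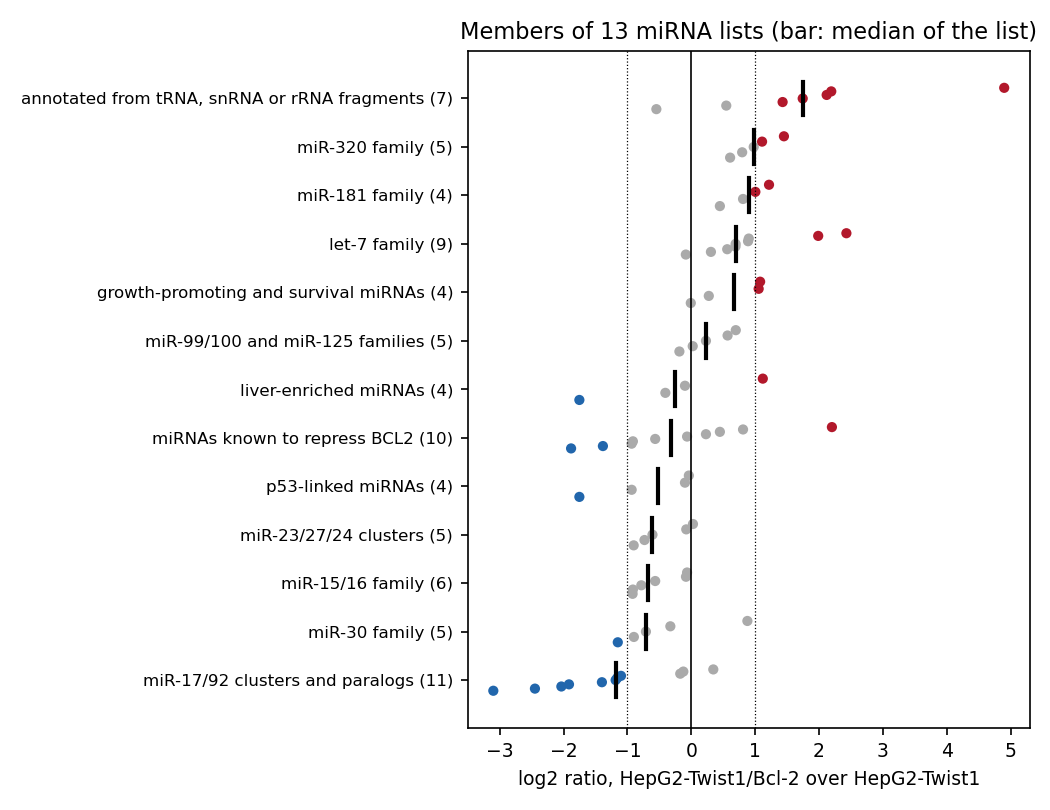
Log2 ratio of HepG2-Twist1/Bcl-2 over HepG2-Twist1 for the measured members of 13 miRNA lists, 1 point per miRNA, with the median of each list as a bar, red points at least 2-fold higher and blue points at least 2-fold lower. The miR-17/92 list has 8 of 11 points past 2-fold on the lower side, and the list of fragments of other RNAs has 5 of 7 on the higher side. Of all 290 miRNAs, 15.5% are past 2-fold on the lower side and 12.4% on the higher side.

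The miR-320 family is processed from a capped hairpin without the nuclease Drosha. Its 5 measured members were all above 0, beside 123 of all 290. Their median log2 ratio was 0.98, and 2 were past 2-fold, beside 12.4% of all 290 on that side. miR-320e read 1691 and 4621, and miR-320d read 2327 and 5016. The miR-30 family had 1 of 5 members past 2-fold, miR-30a, lower at 3535 and 1592, near the 15.5% of all 290 that were lower. In the same family miR-30b was above 0 at 1278 and 2350.0. The 5 members of the miR-23/27/24 clusters had 0 past 2-fold and a median of -0.61, but 4 were at least 2-fold lower, with a median of -1.15, when the median empty spot was subtracted. Their brightest, miR-23a, was among the brightest of all and read 20800.4 and 19696. The miR-99/100 and miR-125 families also had 0 of 5 past 2-fold, with a median of 0.23.

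Of the miRNAs with roles in growth and survival, miR-21, which represses PDCD4, hardly differed, at 12472 and 12404. miR-221, which acts on the cell-cycle inhibitor p27 and the Bcl-2 antagonist PUMA, read 1046 and 2174, a log2 ratio of 1.05 ± 0.24. It was also higher in HepG2-Bcl-2 (2074) than in HepG2-vector (1033), at a log2 ratio of 1.01. Both lines of array 2, which are the lines with Bcl-2, were thus higher for miR-221. Its neighbour miR-222 read 2498 and 3020.4. The liver miRNA miR-192, which is also induced by p53, read 446 in HepG2-Twist1, 132 in the double line, 365 in HepG2-vector and 369 in HepG2-Bcl-2. Only the double line was low, with a log2 ratio of -1.75 ± 0.61, whereas miR-194, from the same cluster on chromosome 11 and from another on chromosome 1, read 120.0 and 112. miR-22, abundant in liver, was higher at 402 and 873. miR-196a, which lies among the HOX genes, read 533 and 1523, with 544 and 447 in the lines without Twist1. No member of the miR-200 family, the epithelial miRNAs that restrain ZEB1, reached 32 in either line.

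A cluster at chr16:14303967-14309371 (plus strand) carries miR-193b and miR-365. miR-193b read 57.2 and 199.9, a log2 ratio of 1.81 ± 0.38, and its strand partner miR-193b* read 38.6 and 42.4. miR-193a-3p, which has the same seed ACUGGCC but lies on chromosome 17 near the second copy of miR-365, was higher as well, at 42.4 and 175. In some hairpins the 2 strands parted: miR-191 read 9708 and 8916, while miR-191* read 191 in HepG2-Twist1 and was under 32 in the double line. Of 40 passenger strands named with a star, 3 were at least 2-fold higher and 6 lower, against 33 and 39 of the other 250 miRNAs. The star strands were dimmer: the higher value of the lines compared had a median of 55.38, against 200.2 for the others. Many star strands thus lay too near the minimum of 32 to be called.

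**Figure D4:**
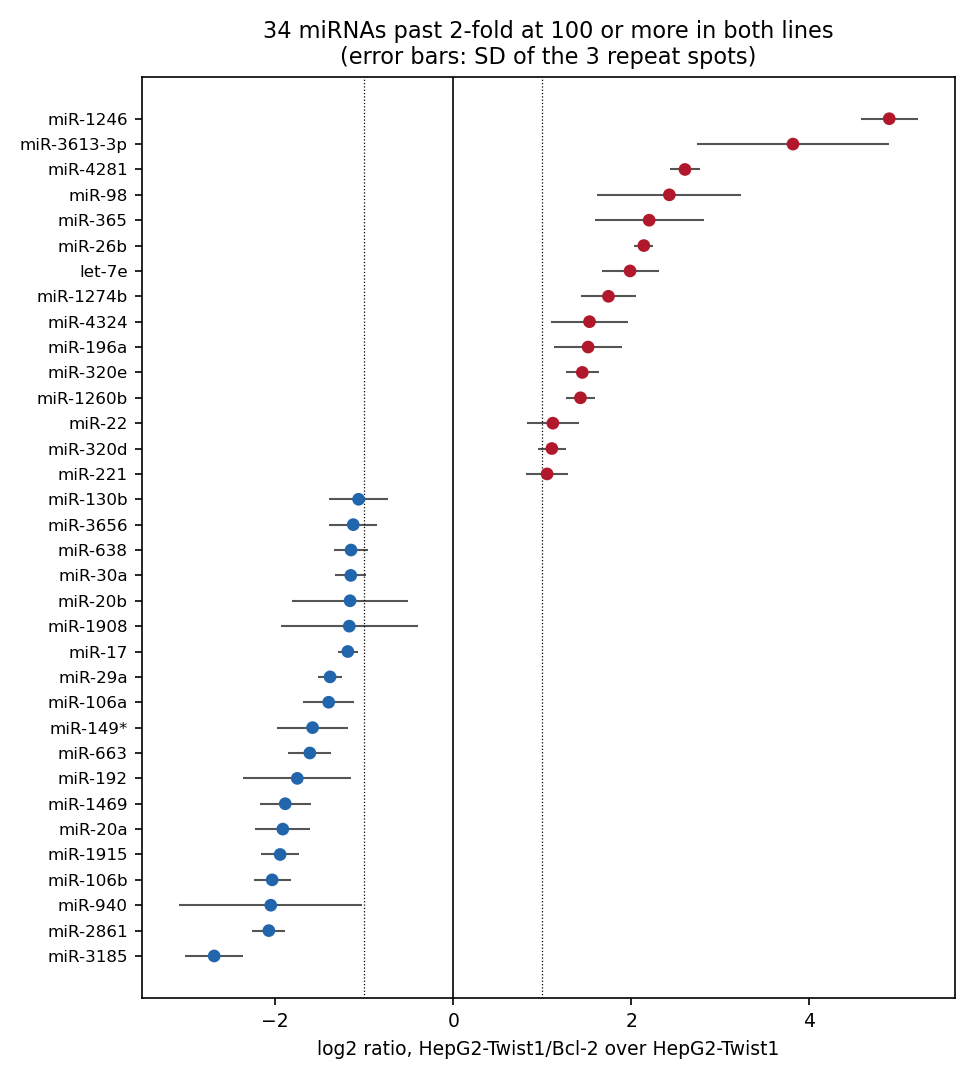
Log2 ratio of HepG2-Twist1/Bcl-2 over HepG2-Twist1 for the 34 miRNAs past 2-fold at 100 or more in both lines, with error bars of 1 SD of the repeat spots and dotted lines at 2-fold. The 15 higher miRNAs run up to miR-1246 at 4.90 and the 19 lower ones down to miR-3185 at -2.69, and the bars of miR-3613-3p, miR-98 and miR-940 are among the widest.

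Many of the remaining lower miRNAs were GC-rich. Of the 47 miRNAs with a GC content of 70% or more, 14 were at least 2-fold lower and 2 higher. Of the 29 under 40% GC, 6 were lower and 7 higher. Over all 290 the shares were 15.5% lower and 12.4% higher. miR-1915 read 16286 and 4230.4, a log2 ratio of -1.94 ± 0.22. miR-2861 read 7122 and 1694, and miR-1469 read 6249 and 1689. miR-663 and miR-638, which were among the bright probes, read 6578 and 2154, and 23518 and 10611. In HepG2-vector and HepG2-Bcl-2, miR-1915 read 12722.5 and 6938, miR-1469 read 5646 and 2672, and miR-663 read 7189 and 3834. For each of these, and for miR-2861 and miR-638, both lines of array 2 were below both lines of array 1. The lines of array 2 are also the lines with Bcl-2. miR-4281, at 88.9% GC, was an exception on the higher side. Over the 123 miRNAs that reached 100 in both lines, Spearman's rho between the GC content and the log2 ratio was -0.33. It was -0.63 for HepG2-Bcl-2 over HepG2-vector. For HepG2-Twist1/Bcl-2 over HepG2-Bcl-2, both with Bcl-2 and on 1 array, it was -0.01. These points share their libraries, and the part of base composition in the ratios was not tested.

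The lowest of these 123 was miR-3185, from chromosome 17, which read 2945 in HepG2-Twist1, 458 in the double line, 2645 in HepG2-vector and 2385 in HepG2-Bcl-2. The double line alone was low, at a log2 ratio of -2.69 ± 0.33. Among the bounds, miR-1281 had even spots in HepG2-Twist1 and was at least 11.1-fold lower (354 in HepG2-Twist1 and 26.2 in the double line). miR-575 was at least 7.57-fold lower (242 and 20.9). The bounds of miR-450b-5p, miR-3713 and miR-218 each rested on 1 of 3 spots in HepG2-Twist1. The spots of miR-450b-5p there read 490.9, 39.1 and 35.5, those of miR-3713 read 432, 40.9 and 40.4, and those of miR-218 read 406 in 1 spot and 40.8 or less in the others. On the higher side, miR-29b-2* in the double line likewise had spots of 524, 124 and 113. Scaled to the median of the spots, none of these 4 was past 2-fold. miR-494 was under 32 in HepG2-Twist1 and read 162 in the double line, at least 5.06-fold higher with 3 bright spots.

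The double line was at least 2-fold above all 3 other lines for 19 of the 290 miRNAs (6.55%) and below all 3 for 17 (5.86%). The first group held miR-98, let-7e, miR-26b, miR-4281, miR-4286, miR-4298, miR-574-5p, miR-193a-3p, miR-193b, miR-196a and both miR-1274 forms. In the second were miR-17, miR-18a, miR-18b, miR-19b, miR-20a, miR-20b, miR-106a and miR-106b, along with miR-29a, miR-29c, miR-148b, miR-192, miR-2861 and miR-3185. Thus 8 of its 17 miRNAs came from the miR-17/92 list, which held 11 of all 290. Against the line in the same dye, HepG2-vector, the double line was at least 2-fold higher for 31 of the 290 miRNAs (10.7%) and lower for 43 (14.8%). These held 30 of the 36 and 35 of the 45 called over HepG2-Twist1. Against HepG2-Bcl-2 on its own array, it was higher for 30 (10.3%) and lower for 29 (10%), which held 22 of the 36 and 18 of the 45. All of these comparisons share the HepG2-Twist1/Bcl-2 sample, so the overlaps are counts and no separate evidence.

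A second pair, HepG2-Bcl-2 over HepG2-vector, also set a line with Bcl-2 against one without, on the same arrays with the dyes the other way round and with no sample in common. In this pair alone, 13 of the 290 miRNAs were at least 2-fold higher and 29 lower, beside 36 and 45 in the first pair. Of the 290 miRNAs, 7 were at least 2-fold higher in both pairs (2.41%) and 13 lower in both (4.48%). Those higher were miR-1246, miR-3613-3p, miR-4298, miR-365, miR-10a, miR-221 and miR-29b-2*, the last on 1 spot. miR-10a, from the HOXB cluster, read 82.4 and 200.5 with Twist1 and 72.2 and 291 without it. Those lower in both included miR-1281, miR-575, miR-191*, miR-940, miR-1469, miR-149* and miR-19b. A GC content of 70% or more was found in 5 of the 13, beside 47 of all 290. miR-424, of the miR-15/16 family, showed how far the pairs could part. It read 55.0 and 16.4 with Twist1, and 80.3 and 819.6 without it. An effect of the array would enter both pairs with 1 sign and an effect of the dye with opposite signs, and neither can be told apart from the construct with these samples.

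**Figure D5:**
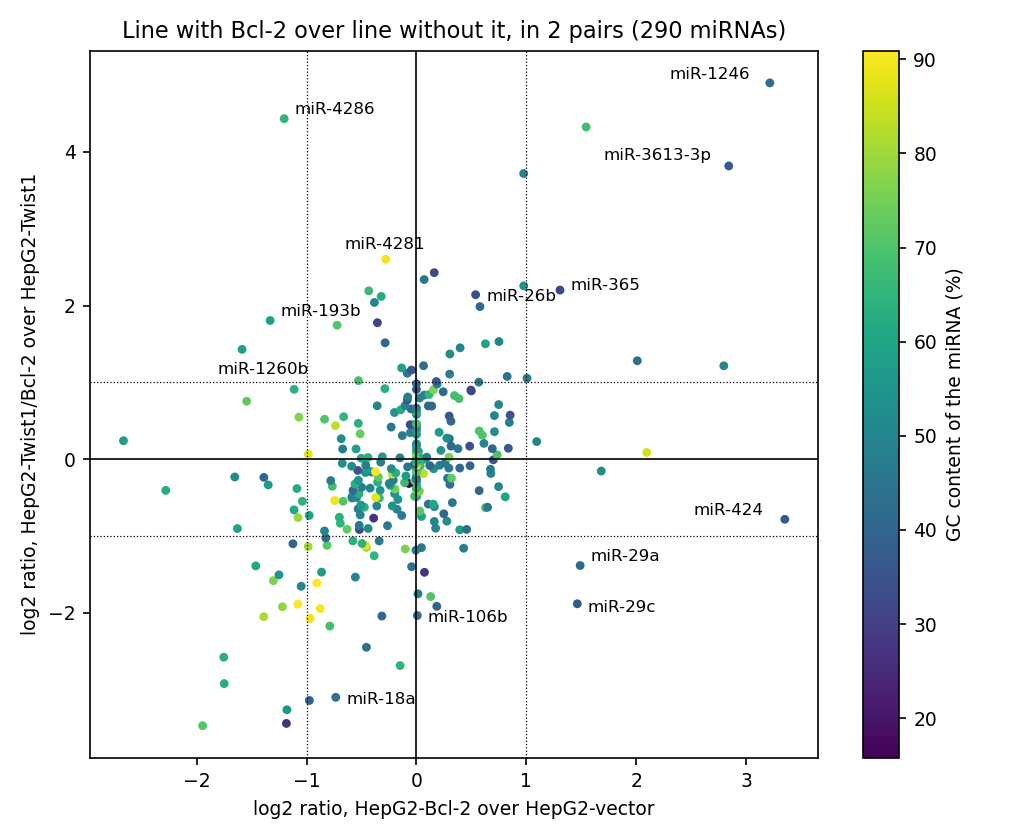
Log2 ratio of HepG2-Bcl-2 over HepG2-vector (horizontal) against that of HepG2-Twist1/Bcl-2 over HepG2-Twist1 (vertical) for 290 miRNAs, 1 point each, coloured by GC content, with dotted lines at 2-fold. miR-1246 is at 3.21 and 4.90, and miR-29a and miR-29c lie in the lower right and miR-4286 in the upper left.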

How the data were processed

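Total RNA of 4 HepG2 lines was hybridized, 1 sample per line, to 2 two-colour LC Sciences arrays. The authors subtracted background, normalized by cyclic LOWESS and deposited a normalized intensity per miRNA and sample on a linear scale, and a scanner table per array with the intensity of each spot. The normalized intensities were used as deposited, with values under 32 set to 32 and the log2 ratio called at 1 or more in size. No test was run, since each line had 1 sample. The spot SD combines the CVs of the 3 scanner spots of both lines, each over the mean spot above the median of the 40 empty spots, on the log2 scale. It is a spread of spots and not of cultures, and the number of arrays limits the precision. Of the 290 miRNAs, 247 matched a RefSeq mature sequence (GRCh38.p14) exactly, 5 by containment and 38 not, and names follow the array. Clusters join precursors within 10 kb on 1 strand.

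The alternatives were minimums of 64, 100 and 500, centring on the median, the median of the repeat spots (added after the data were seen), non-overlapping spots, and scanner values corrected by normexp (offset 50) with quantile, cyclic loess or no normalization, or with the median empty spot subtracted. The miRNAs described and the 22 lists were chosen with earlier results of these data known. Named were the 10 highest and 10 lowest miRNAs at 100 or more in both lines, the 5 largest bounds on each side, the 5 brightest, up to 4 members of each list past 2-fold, and miR-26a and miR-26b; others are given as members of a family, cluster or hairpin, or were chosen after their values were seen. The tools were limma 3.58.1 in R 4.3.3, and pandas 2.3.3, numpy 2.4.6 and matplotlib 3.10.9 in Python 3.11.15.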

Additional observations from a re-analysis of the deposited data

Results flagged for a closer look

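Of the 290 miRNAs, 5 were at least 2-fold different in opposite directions in the 2 pairs of lines with and without Bcl-2. The difference between the pairs was not tested, as each line had 1 sample, and the dyes ran opposite ways in the pairs. miR-29a had a log2 ratio of -1.38 for HepG2-Twist1/Bcl-2 over HepG2-Twist1 and 1.49 for HepG2-Bcl-2 over HepG2-vector. miR-29c was at -1.88 in the first pair, as a bound, and 1.46 in the second. miR-193b was at 1.81 and -1.33, the latter against a value under 32 in HepG2-Bcl-2. miR-1260b was at 1.43 and -1.59, and miR-4286 at 4.43 and -1.20.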

How the results depend on the processing

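No paired analysis was possible because each line had 1 sample. With the minimum at 100 the counts were 23 higher and 28 lower, and at 500 they were 11 and 14, as fewer miRNAs then qualify. Without normalization they were 265 and 10, of which 36 and 9 were among the 36 and 45 of the deposited values, and the ratios of miR-192, miR-29c and miR-30a changed sign, to 0.15, 0.11 and 0.026, as did that of miR-23a, from -0.08 to 0.15, so that 44 of the 48 named miRNAs kept their sign. In that setting the calls of miR-1238, miR-425* and miR-572 turned past 2-fold the other way, to 1.10, 1.23 and 1.01, while the median of the brighter miRNAs went to 1.28. Under the other alternatives the counts stayed within 1.5 times, from 32 to 52 higher and from 35 to 50 lower, and 0 of the calls turned past 2-fold the other way. With non-overlapping spots 33 and 41 remained, and miR-450b-5p, miR-3713, miR-218, miR-29b-2*, miR-10b, miR-374c and miR-658 were lost. Of the 48 named miRNAs 47 kept their sign with cyclic loess and with quantile normalization, and 45 with the empty spots subtracted. Of 13 list medians 11 kept it in the last setting, where the let-7 family went to -0.17 and the liver miRNAs from -0.25 to 0.46. Spots of HepG2-Twist1/Bcl-2 near its empty spots limit what can be read below 100.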

Other observations

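Some miRNAs outside the families above also set the double line apart; they were chosen after their values were seen. miR-335, from an intron of the imprinted MEST gene, read 76.1 in HepG2-Twist1, 261 in the double line HepG2-Twist1/Bcl-2, 94.0 in HepG2-vector and 73.5 in HepG2-Bcl-2. miR-483-5p, from an intron of IGF2, read 49.7, 237, 42.8 and 84.2 in that order. The double line was the highest for both. In the family with the seed CAGUGCA, miR-148b read 266, 64.6, 268 and 215, lowest in the double line, while miR-152 read 259 and 361 in the lines compared. The cluster on chromosome X that holds miR-532 and miR-362 had 6 measured products. Of these, 1 was at least 2-fold lower, miR-532-5p at 220.2 and 77.5, and 0 were higher. Of all 290 miRNAs, 15.5% were lower and 12.4% higher.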
